A study of Mus musculus with 4 samples.

Results

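The genes described here encode the synaptic vesicle and exocytosis machinery, measured in the cerebral cortex of adult male mice labelled Ndrg2-/- and of wild-type males, all on the C57BL/6N background and 3 months old. Members were chosen by symbol: the synaptotagmins (Syt), syntaxins (Stx), syntaxin-binding proteins (Stxbp), Vamp, Rab3, complexin (Cplx), Sv2, synapsin (Syn1 to Syn3), Rims, Unc13 and synaptogyrin (Syngr) genes, together with Snap25, Snap29, Nsf, Syp, Sypl, Synpr, Bsn, Pclo, Erc1, Erc2, Dnm1 and Amph. The reference gene table held 103 such symbols, 98 of them had a probe on the array, and 94 were tested, out of 15759 genes tested in all. Stx11, Stx19, Syt8 and Syt14 were not well above background on all 4 arrays in either channel. No probe was matched to Rab36, Syt5, Vamp9, Stxbp3-ps or Vamp7-ps. Read by its letters, the prefix Rab3 also takes in Rab30 to Rab39, of which 11 were tested. They are described apart from Rab3a, Rab3b, Rab3c and Rab3d.

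A synaptic vesicle fuses with the presynaptic membrane when SNARE proteins of the vesicle (the Vamp family) and of the plasma membrane (syntaxin and Snap25) zip into 1 bundle. Synaptotagmins on the vesicle bind calcium and trigger that fusion, and complexins clamp and then promote it. Unc13 (Munc13) proteins and some of the syntaxin-binding proteins assemble the bundle. Bassoon, Piccolo, Rims and Erc proteins form the active zone, the patch of membrane where vesicles dock, and dynamin and amphiphysin take the membrane back after release. Many of these genes, though not all, are highly expressed in cortical neurons, whereas Ndrg2, a member of the N-myc downstream regulated family, is in the brain mainly a gene of astrocytes.

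Each of the 4 dual-colour Agilent arrays carried 1 RNA sample labelled Ndrg2-/-, dyed with Cy5 (red), and 1 wild-type sample, dyed with Cy3 (green), from 200 ng of total RNA per sample. A ratio below is the log2 of the Ndrg2-/- over the wild-type signal of 1 array, given as the mean ± SD over arrays 1 to 4 (n = 4). A level is the normalized log2 signal of 1 sample, and levels of different probes cannot be compared. A gene was read from its brightest tested probe and was called where limma's adjusted p was under 0.05. Neither the deleted segment of Ndrg2 nor the number of mice behind a sample is given in the labels, so p-values measure only the spread between these samples. In bulk RNA, fewer cells of a type and less RNA per cell cannot be told apart.

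The median spot signal was 283 to 335.5 in the Ndrg2-/- channel, against 94 to 122 in the wild-type channel, and 70.6% to 73.4% of probes, against 70.7% to 72.7%, were well above background. All 9 markers of cortical excitatory neurons, Tbr1 and Neurod6 among them, were well above background. The targeted gene was not lower in the samples labelled Ndrg2-/-: its probe (NM_013864) gave 0.11, 0.37, 0.40 and 0.38 on arrays 1 to 4, a mean of 0.32 ± 0.14 (adjusted p 0.0173), with levels of 15.19 ± 0.13 in Ndrg2-/- and 14.87 ± 0.13 in wild-type samples. Leaving out replicate 2 (0.30, adjusted p 0.0796) or replicate 3 (0.29, adjusted p 0.0651) ended this call, and an exact two-sided sign-flip test gave p = 0.125, the smallest that 4 arrays allow. A probe outside the deleted segment checks nothing, so every direction below rests on the labels alone. Whether labels or dyes were exchanged, which would turn every sign, was not tested. Because Cy5 always marked the Ndrg2-/- sample, a probe's genotype and dye differences cannot be told apart.

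The exocytosis genes differed little between the samples labelled Ndrg2-/- and wild type, and in both directions. Of the 94 tested members, 10 were higher and 6 lower in the samples labelled Ndrg2-/-, or 17% called, and 78 were not called. Over all genes, 14.9% were called, 9.1% higher and 5.84% lower, so the members' share lay near the background. Their median log2 ratio was 0.01, the same as that of all genes, and their array medians were 0.03, 0.03, 0.01 and 0.01. Mean ratios ran from -0.31 for Rab34 upward to 0.30. The median size of a ratio without its sign was 0.09 for members and 0.08 for all genes, and the median SD over arrays was 0.08 for members and 0.09 for all genes.

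The study's criterion of 1.5 fold (0.58 on the log2 scale) was met on all 4 arrays by 0 members, where 0.0952% of all genes met it. For each of the 94 members the 95% interval of the ratio lay inside 1.5 fold in either direction, and the bound farthest from 0 was 0.46 in size. The same held for 98.4% of all genes. These intervals cover the spread between the 4 sample pairs and their arrays, and no dye effect. With unadjusted p under 0.05, limma marked 37 members (39.4%), beside 34.8% of all genes. One sign on all 4 arrays was seen in 41.5% of the members and in 42.7% of all genes. Levels of the 4 Ndrg2-/- and the 4 wild-type samples did not overlap for 15 members, or 16%, beside 15.3% of all genes.

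The calls rested on all 4 arrays together. Of the 16 called members, 4 stayed called when replicate 1 was left out, 1 when replicate 2 was, 3 when replicate 3 was and 9 when replicate 4 was. With each replicate left out in turn, 1 of the 16 was called every time, and Syt6, Syt9, Vamp3, Cplx2, Rab33a and Rab35 were lost whichever replicate was left out. The mean ratio of each called member kept its sign in all of these fits. A fit on 3 arrays has less power for every gene. The share of all called genes that stayed called is not given, so whether these losses are particular to the members was not tested. With the scanner software's processed signals, 8 of the 16 stayed called, again without a share over all called genes to set beside it. The other 8 missed the threshold there: Snap25 (0.09, adjusted p 0.180), Vamp3 (0.16, 0.171), Vamp8 (0.23, 0.0556), Syt6 (0.17, 0.0598), Syt9 (-0.25, 0.0752), Stxbp5 (-0.22, 0.0771), Rab34 (-0.34, 0.0539) and Rab35 (-0.14, 0.0961). Median centring without loess moved the median of all genes to 0.28 and that of the members to 0.34, with 77 members called higher and 6 lower. That setting called most of all tested genes, not only members. On that scale the ratios of Cplx2, Stxbp5, Rab33a, Rab34 and Rab35 turned positive (0.05 to 0.45).

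**Figure D1:**
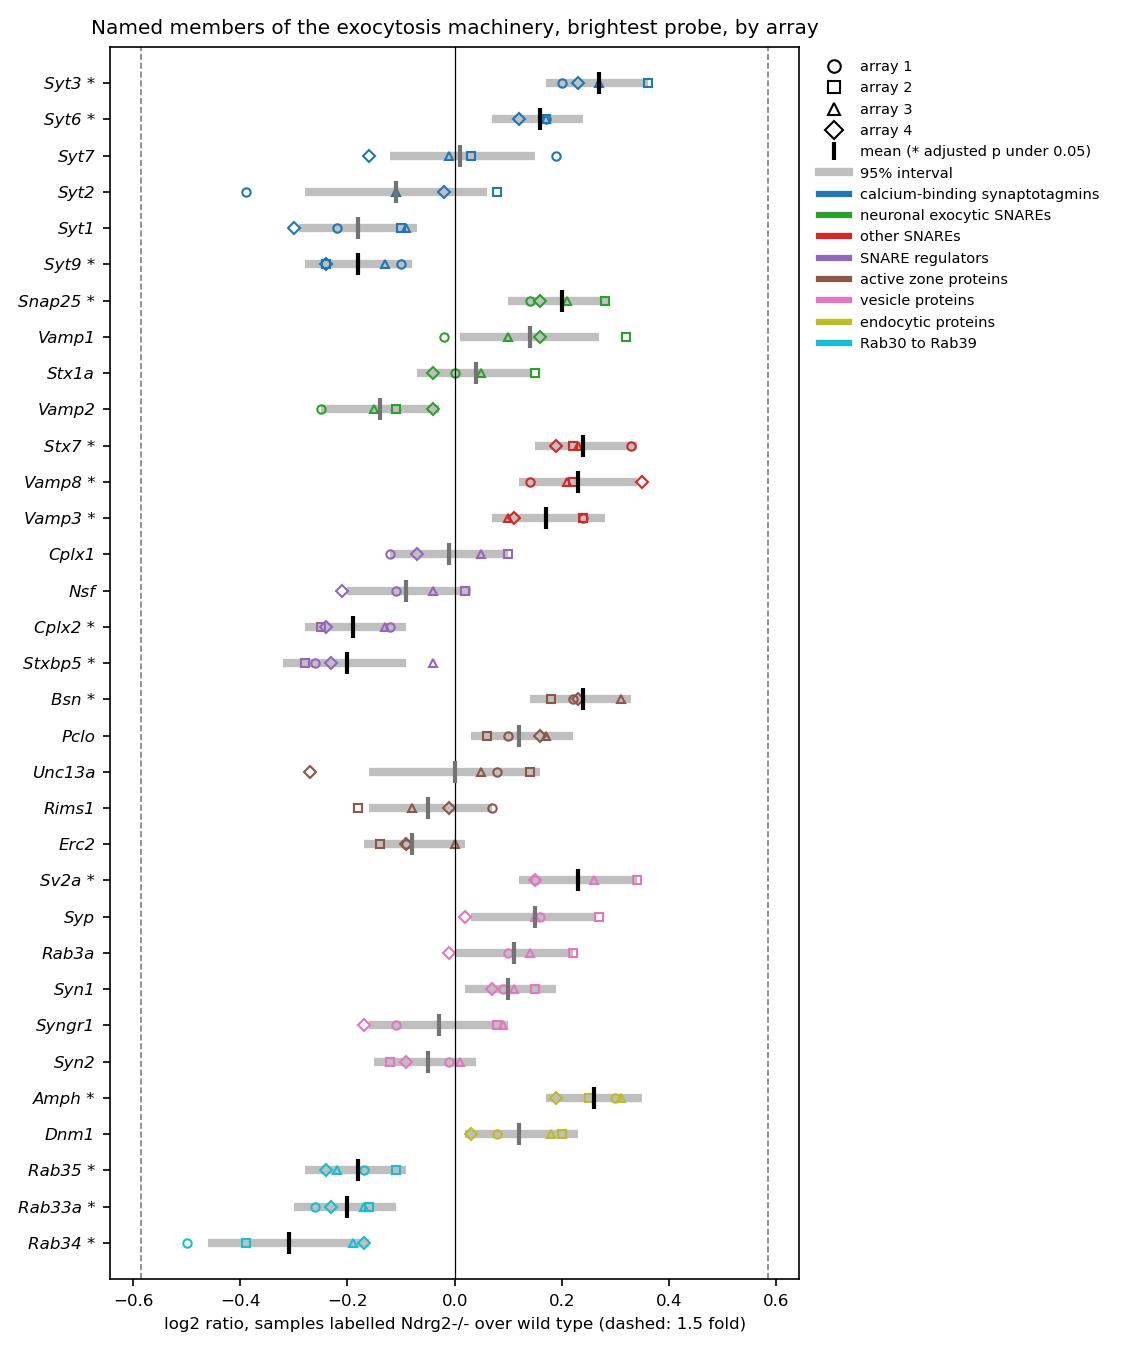
Log2 ratios of Ndrg2-/- over wild-type samples (x axis) for the named members (rows), with 1 symbol per array, the mean as a vertical bar, the 95% interval as a grey band, colours for roles and an asterisk for an adjusted p under 0.05. No mean passes the dashed lines at 1.5 fold; Syt3 at 0.27 and Rab34 at -0.31 lie farthest out among those drawn.

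The synaptotagmins, read together as the class of calcium sensors, moved both ways. Of 17 synaptotagmins, 14 were tested, with a median ratio of -0.03 (0.33 under median centring without loess, where all genes had 0.28). Of these, 2 were higher and 1 lower in the samples labelled Ndrg2-/- (21.4% called, beside 14.9% of all genes). All 3 were among the 7 tested members of the calcium-binding kind, whose median was 0.01. Of the 7 other synaptotagmins, with a median of -0.04, 0 were called by limma. An unadjusted p under 0.05 in limma was reached by 2 of those others (28.6%, beside 34.8% of all genes). With 7 genes in each group, these counts have little precision. Whether the calcium-binding and the other synaptotagmins differ was not tested.

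Syt1, the fast calcium sensor of cortical and hippocampal neurons, gave levels of 16.11, 16.17, 16.03 and 15.94 in Ndrg2-/- samples 1 to 4, against 16.33, 16.27, 16.12 and 16.24 in wild-type samples. Every array pair had the lower level in its Ndrg2-/- sample, and the 2 groups overlapped. The ratio of -0.18 ± 0.10 missed the threshold by little (adjusted p 0.0507; 95% interval -0.29 to -0.07). Syt2, its close relative in fast-firing neurons, had ratios of -0.39, 0.08, -0.11 and -0.02 and a mean of -0.11 ± 0.20 (adjusted p 0.342). Syt9, a calcium sensor of the same fast class, was lower: -0.10, -0.24, -0.13 and -0.24, mean -0.18 ± 0.07 (adjusted p 0.0378). Without 1 replicate, its adjusted p was 0.0696 to 0.143. The Syt9 probe was dim, though well above background on all 4 arrays, with levels of 7.60 ± 0.09 in Ndrg2-/- and 7.78 ± 0.13 in wild-type samples. All 3 fast sensors had negative means, as had 7118 of the 15759 tested genes, and only Syt9 passed the test. Under median centring without loess the ratio of Syt1 turned positive, and that of Syt9 was -0.15.

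Syt3 and Syt6 belong to a subgroup of synaptotagmins linked by disulfide bonds, and both were higher. The levels of Syt3, a high-affinity calcium sensor, were 11.49, 11.57, 11.41 and 11.45 in Ndrg2-/- samples, against 11.28, 11.21, 11.14 and 11.23 in wild-type samples. The groups did not overlap, and the ratio was 0.27 ± 0.07, or 20% higher (adjusted p 0.0123). Leaving out replicate 2 or replicate 3 took the adjusted p past the threshold (0.0637 and 0.0513). Syt6 had ratios of 0.17, 0.17, 0.17 and 0.12, mean 0.16 ± 0.03 (adjusted p 0.0349), with an adjusted p of 0.0551 to 0.124 without 1 replicate, and -0.02 as the mean of its probes (adjusted p 0.846). Syt10, a member of the same subgroup, gave 0.12 ± 0.18 (adjusted p 0.259).

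Syt7, the slow sensor of asynchronous release and facilitation, had ratios of 0.19, 0.03, -0.01 and -0.16, which spread on both sides of 0 (mean 0.01 ± 0.14, 95% interval -0.12 to 0.15, adjusted p 0.900). Among the synaptotagmins of the other kind, Syt13 came closest to a call with 0.34, 0.38, 0.07 and 0.09, mean 0.22 ± 0.16 (adjusted p 0.0607). Its high ratios came from arrays 1 and 2. Syt4, whose first calcium-binding domain lacks a calcium-binding residue, gave -0.13 ± 0.05 (adjusted p 0.0679).

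Of 26 SNARE genes, 22 were tested, and 4 were higher and 0 lower in the samples labelled Ndrg2-/-, beside 9.1% higher and 5.84% lower over all genes. The called share of 18.2% lay near the 14.9% of all genes. In limma, 11 had an unadjusted p under 0.05 (50%, beside 34.8% of all genes), and the median ratio was 0.04. The medians by array were 0.12, 0.06, 0.07 and 0.02.

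Of the 5 neuronal SNAREs that drive transmitter release, 1 was called (20%, beside 14.9% of all genes), a count with little precision. Snap25, the plasma membrane SNARE that gives 2 strands to the bundle, had levels of 16.30, 16.38, 16.40 and 16.30 in Ndrg2-/- samples, against 16.16, 16.10, 16.19 and 16.14 in wild-type samples. The groups did not overlap, and the ratio was 0.20 ± 0.06, or 15% higher (adjusted p 0.0253). It passed the threshold without replicate 4 (adjusted p 0.0489) and missed it without replicates 1, 2 and 3 (adjusted p 0.0611, 0.106 and 0.0937).

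Vamp2 (synaptobrevin 2), the main vesicle SNARE of the forebrain, had levels of 14.64, 14.69, 14.59 and 14.82 in Ndrg2-/- samples against 14.89, 14.80, 14.75 and 14.86 in wild-type samples. The groups overlapped at the Ndrg2-/- sample of array 4, and the ratio of -0.14 ± 0.09 was not called (adjusted p 0.0861). Its relative Vamp1 had ratios of -0.02, 0.32, 0.10 and 0.16, mean 0.14 ± 0.14 (adjusted p 0.145). Stx1a, a syntaxin of the plasma membrane, lay near 0 with 0.04 ± 0.08 (95% interval -0.07 to 0.14, adjusted p 0.586). Of this bundle only Snap25 passed the test, and under median centring without loess Vamp2 (0.38) had the sign of Snap25 (0.80).

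The other 3 called SNAREs work on endosomes and lysosomes. They came from 17 tested SNAREs outside the neuronal group (17.6% called, beside 14.9% of all genes). The remaining 14 were not called, and the median of the 17 was 0.05. Stx7, a syntaxin of late endosomes, had levels of 12.28, 12.21, 12.15 and 12.20 in Ndrg2-/- samples, against 11.95, 11.98, 11.92 and 12.01 in wild-type samples. These groups did not overlap (ratio 0.24 ± 0.06, adjusted p 0.0147). It stayed called without replicate 4 (adjusted p 0.0298) and missed the threshold without replicates 1, 2 and 3 (0.0559, 0.0666 and 0.0551). Vamp8 (endobrevin), which pairs with Stx7 in late endosome fusion, had ratios of 0.14, 0.22, 0.21 and 0.35, mean 0.23 ± 0.09 (adjusted p 0.0219). Its adjusted p was 0.0855 without replicate 2 and 0.0719 without replicate 3. Vamp3 (cellubrevin), the SNARE of recycling endosomes, had ratios of 0.24, 0.24, 0.10 and 0.11, mean 0.17 ± 0.08 (adjusted p 0.0454, and 0.0612 to 0.164 without 1 replicate). The Vamp3 probe was dim, with levels of 7.77 ± 0.09 in Ndrg2-/- and 7.59 ± 0.07 in wild-type samples. Stx8, a further syntaxin of the late endosomal bundle, gave -0.12 ± 0.04 and was not called (adjusted p 0.0834).

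Of 12 tested regulators of SNARE assembly, 3 were called (25%, beside 14.9% of all genes), and the median was 0.00. Stxbp5 (tomosyn), which ties up syntaxin and Snap25 and so limits release, was lower: -0.26, -0.28, -0.04 and -0.23, mean -0.20 ± 0.11 (adjusted p 0.0411). Array 3 stood near 0; without replicate 3 the ratio was -0.26 (adjusted p 0.0410), and without replicates 1, 2 and 4 it missed the threshold (adjusted p 0.126, 0.152 and 0.0913). Complexin 2 (Cplx2), abundant in cortical excitatory neurons, had levels of 16.55, 16.56, 16.79 and 16.66 in Ndrg2-/- samples, against 16.68, 16.81, 16.92 and 16.89 in wild-type samples on its brightest probe. Each pair had the lower level in its Ndrg2-/- sample although the groups overlapped, with a ratio of -0.19 ± 0.07 (adjusted p 0.0316, and 0.0671 to 0.126 without 1 replicate). Complexin 1 (Cplx1) had ratios of -0.12, 0.10, 0.05 and -0.07, mean -0.01 ± 0.10 (adjusted p 0.909). Nsf, the ATPase that takes used SNARE bundles apart, gave -0.09 ± 0.10 (adjusted p 0.263).

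At the active zone, 1 of 12 tested genes was called (8.33%, beside 14.9% of all genes). Bsn encodes Bassoon, a giant scaffold protein of the presynaptic membrane. Its levels were 13.75, 13.84, 13.91 and 13.83 in Ndrg2-/- samples, against 13.54, 13.66, 13.60 and 13.59 in wild-type samples. The groups did not overlap, and the ratio was 0.24 ± 0.06, or 18% higher (adjusted p 0.0157). It stayed called without replicate 4 (adjusted p 0.0391) and missed the threshold without replicates 1, 2 and 3 (adjusted p 0.0526, 0.0584 and 0.0670). Pclo, which encodes Bassoon's relative Piccolo, had ratios of 0.10, 0.06, 0.17 and 0.16 on its brightest probe, mean 0.12 ± 0.05 (95% interval 0.03 to 0.22, adjusted p 0.0826).

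The vesicle-priming proteins of the active zone were not called. Unc13a (Munc13-1) gave 0.08, 0.14, 0.05 and -0.27, a mean of 0.00 ± 0.18 (adjusted p 0.997) in which array 4 stood opposite to the others. Rims1, which tethers calcium channels and Rab3 vesicles, gave -0.05 ± 0.11 (adjusted p 0.557), and the scaffold gene Erc2 gave -0.08 ± 0.06 (adjusted p 0.233). The 12 mean ratios ran from -0.15 to 0.24 with a median of 0.03.

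Of 17 tested vesicle proteins, 1 was higher and 0 lower by limma (5.88% called, beside 14.9% of all genes), and the median was 0.01. In limma, 8 had an unadjusted p under 0.05 (47.1%, beside 34.8% of all genes). Sv2a, the vesicle membrane protein bound by the drug levetiracetam, had levels of 12.86, 12.95, 12.79 and 12.74 in Ndrg2-/- samples, against 12.72, 12.60, 12.53 and 12.59 in wild-type samples. The lowest Ndrg2-/- level was just above the highest wild-type level, and the ratio was 0.23 ± 0.09, or 17% higher (adjusted p 0.0247). It stayed called without replicate 4 (adjusted p 0.0425) and missed the threshold without replicates 1, 2 and 3 (adjusted p 0.0562, 0.0995 and 0.0923). Its relative Sv2b gave -0.14 ± 0.13 (adjusted p 0.139).

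The usual marker proteins of synaptic vesicles were not called. Synaptophysin (Syp), the most used of them, had ratios of 0.16, 0.27, 0.15 and 0.02, mean 0.15 ± 0.10 (95% interval 0.03 to 0.26, adjusted p 0.0857). Syn1, whose product ties vesicles to the cytoskeleton, had 0.09, 0.15, 0.11 and 0.07, mean 0.10 ± 0.04 (adjusted p 0.108), and its levels in the 2 groups did not overlap. For Syn2 the ratio was -0.05 ± 0.06 (adjusted p 0.419). Rab3a, the GTPase of docked vesicles, gave 0.11 ± 0.09 (adjusted p 0.146), and synaptogyrin 1 (Syngr1) gave -0.03 ± 0.13 (adjusted p 0.753). Positive and negative means stood side by side within the synapsins and the Sv2 genes.

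The 4 regulators of the Rab3 cycle (Rab3gap1, Rab3gap2, Rab3il1 and Rab3ip) were not called and ran from -0.01 to 0.08, with 0 at an unadjusted p under 0.05 in limma, beside 34.8% of all genes. Of the endocytic pair, amphiphysin (Amph), which bends membrane and recruits dynamin, had levels of 14.49, 14.51, 14.50 and 14.45 in Ndrg2-/- samples, against 14.20, 14.27, 14.19 and 14.26 in wild-type samples. The 2 groups lay well apart for this gene, with a ratio of 0.26 ± 0.05, or 20% higher (adjusted p 0.0112). Its adjusted p was 0.0577 without replicate 2 and 0.0520 without replicate 3. Dnm1, the dynamin of neurons that cuts vesicles from the membrane, gave 0.08, 0.20, 0.18 and 0.03, mean 0.12 ± 0.08 (adjusted p 0.109).

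The GTPases Rab30 to Rab39, which share letters with Rab3 but serve other membranes, supplied 3 of the 6 lower calls, with 0 higher among 11 tested, although all 3 were positive under median centring without loess. Over all genes 5.84% were lower and 9.1% higher. In limma, 5 of the 11 had an unadjusted p under 0.05 (45.5%, beside 34.8% of all genes). Rab34, a Rab of the Golgi and of cilium formation, had ratios of -0.50, -0.39, -0.19 and -0.17, mean -0.31 ± 0.16 (adjusted p 0.0232). Leaving out replicate 1 (-0.25, adjusted p 0.0686) or replicate 2 (-0.28, adjusted p 0.0995), the 2 arrays with its lowest ratios, ended the call. Rab33a gave -0.20 ± 0.05 (adjusted p 0.0208), and Rab35, a Rab of endosome recycling, gave -0.18 ± 0.06 (adjusted p 0.0293); levels of the 2 groups did not overlap for either gene. The adjusted p without 1 replicate was 0.0508 to 0.0747 for Rab33a and 0.0688 to 0.112 for Rab35. Without Rab30 to Rab39, 13 of 83 members (15.7%) were called, 10 higher and 3 lower, and the median stayed at 0.01.

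**Figure D2:**
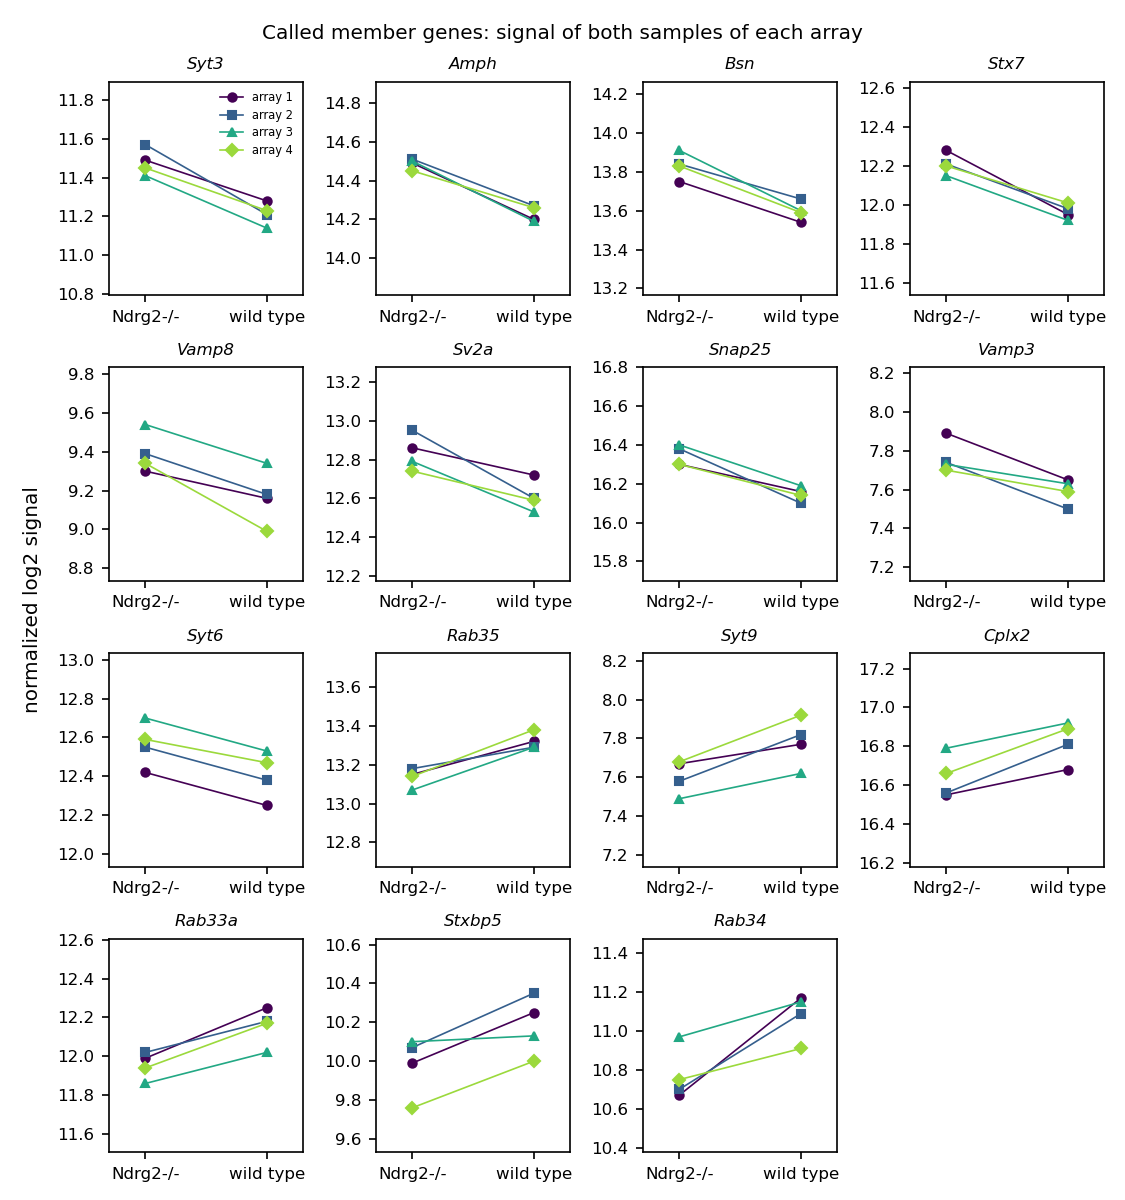
Normalized log2 signals (y axis, each panel on its own scale) of 15 called members in the Ndrg2-/- sample (left) and the wild-type sample (right) of each array, joined by a line. All lines within a panel slope 1 way, and the levels of the 2 groups do not overlap in 9 of the 15 panels.

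Different probes of 1 member gene often went against each other. Of 30 members with more than 1 tested probe, 14 had 1 sign on every probe (46.7%), beside 57.4% of 4147 such genes over the whole array, and the median range between probes of a gene was 0.16 for members and 0.10 for all genes. Of 132 member probes, 27 were called, 14 higher and 13 lower, or 20.5%; over all probes 12.9% were called, 7.39% higher and 5.54% lower. These 132 probes are not independent, since probes of 1 gene share a transcript. Of the 16 called members, 4 had another tested probe, and the brightest of these had the same sign in 1 of 4, beside 70.1% of 705 called genes over the whole array. With so few members, this share has little precision.

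Cplx2 showed this most plainly. Its 4 tested probes are all annotated to transcript NM_009946 and all were called, 3 lower and 1 higher. The brightest probe (A_55_P1962603) gave the -0.19 described above. The probe A_51_P485161 gave 0.33, 0.20, 0.31 and 0.15, mean 0.25 ± 0.08 (adjusted p 0.0184), with a level of 16.60 ± 0.04 in Ndrg2-/- samples and 16.36 ± 0.08 in wild-type samples. The probe A_55_P2148402 gave -0.49, -0.45, -0.36 and -0.38, mean -0.42 ± 0.06 (adjusted p 0.00193), with 15.77 ± 0.18 in Ndrg2-/- and 16.18 ± 0.13 in wild-type samples. It was called with each replicate left out (adjusted p 0.00905 to 0.0235). The remaining probe, A_55_P2067960, gave -0.30 ± 0.15 (adjusted p 0.0224). Leaving out 1 replicate took the positive probe to an adjusted p of 0.0280 to 0.0739 and A_55_P2067960 to 0.0156 to 0.0969; both stayed called without replicate 4 and were lost without each of the others. The direction of Cplx2 thus depends on the probe read.

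Over the whole array, 132 genes had 2 or more called probes, and 12 of them (9.09%) had calls in both directions. Whether the Cplx2 probes report different transcript ends or cross-hybridize was not tested, since the files read here hold no probe sequences.

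Other members had a call on a dimmer probe alone. Syt7 gave -0.26, -0.17, -0.20 and -0.25 on its dimmer probe, mean -0.22 ± 0.04 (adjusted p 0.0168), beside 0.01 on the brightest. This dimmer probe was faint, though well above background on all 4 arrays, with levels of 6.69 ± 0.02 in Ndrg2-/- and 6.91 ± 0.02 in wild-type samples. It stayed called without replicate 4 (adjusted p 0.0426) and was lost without each of the others (0.0617 to 0.0625). Synpr (synaptoporin), a relative of synaptophysin, was lower on its dimmer probe (-0.26 ± 0.11, adjusted p 0.0200), which was lost without replicate 2 (0.0644) and replicate 3 (0.0750), beside -0.18 ± 0.17 on the brightest (adjusted p 0.114). For Syngr1 the dimmer probe, annotated to transcript NM_009303, gave 0.16 ± 0.02 (adjusted p 0.0328), beside -0.03 on the probe for NM_207708. One dimmer probe of Pclo (0.23 ± 0.13, adjusted p 0.0369) and one of Stxbp4 (0.22 ± 0.12, adjusted p 0.0371) were higher, and one each of Rab3c (-0.16 ± 0.05, adjusted p 0.0432) and Rab30 (-0.17 ± 0.03, adjusted p 0.0273) were lower. The calls of Syngr1, Pclo, Stxbp4, Rab3c and Rab30 rested on all 4 arrays (0.0504 to 0.155 once any replicate was dropped). The dimmer probe of the called gene Syt6 gave -0.19 ± 0.23 (adjusted p 0.157), against 0.16 on the brightest, and that of Syt3 gave 0.09 (adjusted p 0.287).

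**Figure D3:**
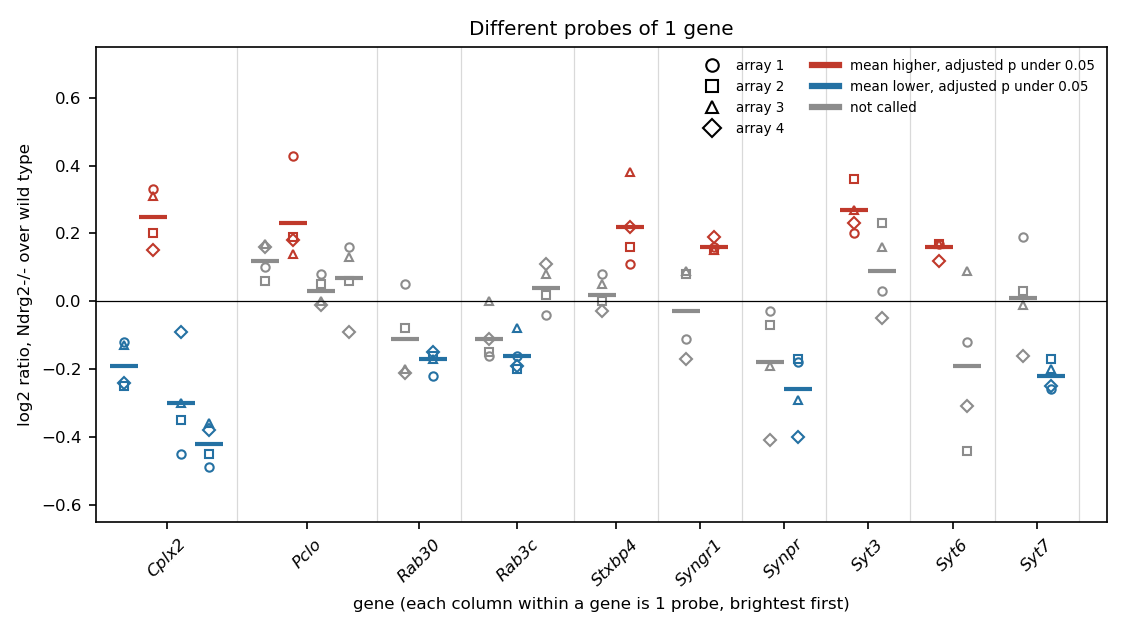
Log2 ratios of Ndrg2-/- over wild-type samples (y axis) for each tested probe of 10 member genes that have several probes and a called one, brightest probe first; symbols are arrays, and bars are means, red where higher, blue where lower and grey where not called. Cplx2 has called probes on both sides of 0, from -0.42 to 0.25.

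Members were found at every brightness, most often in the brightest group, and bright probes were called more often whatever their gene. When the 15759 genes were divided into 10 groups of equal size by mean spot intensity, 5.46% of genes were called in the dimmest group and 23.4% in the brightest. The brightest group held 23 of the 94 members, among them Syt1, Snap25, Cplx2, Rab3a and Dnm1. Of these, 4 were higher and 2 lower (26.1% called), beside 13.8% higher and 9.58% lower over all genes of that group. The other 9 groups held 4 to 12 members each, of which 0% to 50% were called, beside 5.46% to 19.3% of all genes in them.

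**Figure D4:**
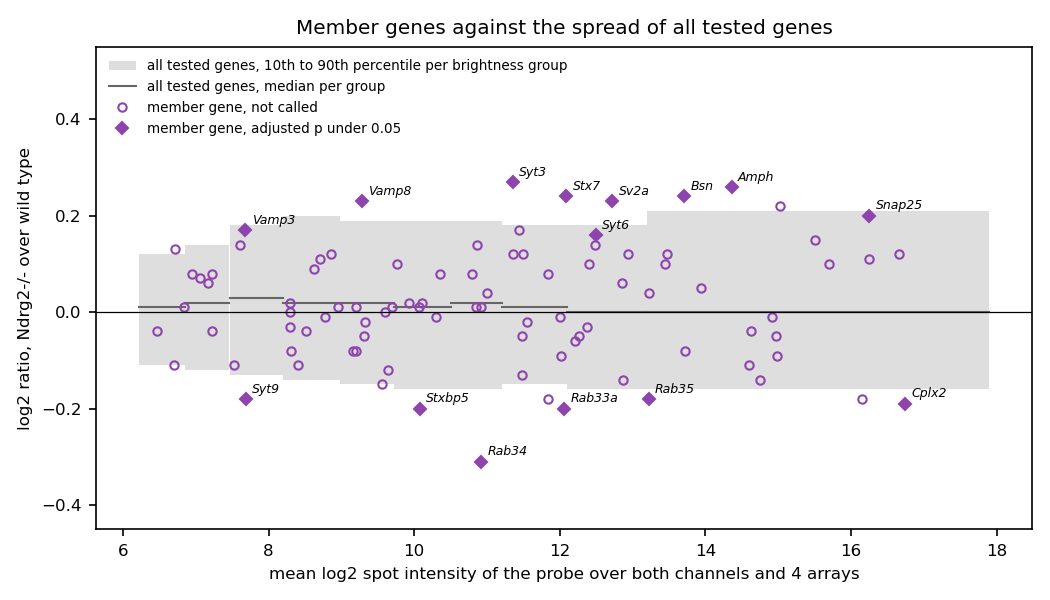
Log2 ratio of Ndrg2-/- over wild-type samples (y axis) against mean log2 spot intensity over both channels (x axis) for 92 of the members, filled where the adjusted p was under 0.05. The grey steps span the 10th to 90th percentile of all tested genes in each of the 10 brightness groups, with their median as a line. Most members lie inside the grey steps, which reach from -0.16 to 0.21 in the brightest group.

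The widest spread between arrays among the members belonged to genes that were not called. Snap29, a SNARE of endosomes and autophagosomes, had ratios of 0.51, 0.39, 0.11 and -0.32 (mean 0.17 ± 0.37). Syngr4 had -0.07, -0.25, 0.23 and 0.46 (mean 0.09 ± 0.31), and Syngr3, a synaptogyrin of synaptic vesicles, had 0.17, 0.24, -0.02 and -0.35 (mean 0.01 ± 0.26). For each of these, arrays 1 and 2 lay on 1 side of array 4.

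Genes that work beside the members also held a few calls each. Of 16 tested genes for vesicle loading, 2 were higher and 1 lower, with a median of 0.04. Slc17a6, the vesicular glutamate transporter VGLUT2, had ratios of 0.22, 0.95, 0.28 and 0.37, mean 0.45 ± 0.34 (adjusted p 0.0408), with array 2 far above the rest. Slc18b1, a vesicular polyamine transporter, gave 0.25 ± 0.09 (adjusted p 0.0173), and Atp6ap1, an accessory subunit of the proton pump that energizes loading, gave -0.17 ± 0.04 (adjusted p 0.0320). Slc17a6 and Atp6ap1 were lost once any replicate was dropped (0.0521 to 0.118), and Slc18b1 without replicate 1 (0.0619) and replicate 3 (0.0670).

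Of 25 tested genes for endocytosis and the clathrin coat, 4 were higher and 1 lower, with a median of 0.05. Itsn1 (intersectin 1), a scaffold that binds dynamin at endocytic sites, gave 0.50, 0.42, 0.48 and 0.44, mean 0.46 ± 0.04 (adjusted p 0.000929), with levels of 13.96 ± 0.12 in Ndrg2-/- samples and 13.50 ± 0.13 in wild-type samples. It was called with each replicate left out (adjusted p 0.00560 to 0.0126) and lay farther from 0 than any member. Hspa8, the chaperone that strips clathrin coats, had 0.47, 0.44, 0.16 and 0.16, mean 0.31 ± 0.17 (adjusted p 0.0261). Epn1 (epsin 1), a clathrin adaptor, gave 0.22 ± 0.05 (adjusted p 0.0176). Hspa8 was lost without replicate 1 (adjusted p 0.0841) and replicate 2 (0.108), and Epn1 without replicates 1, 2 and 3 (0.0634, 0.0644 and 0.0750).

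Of 30 tested partners in priming, docking and fusion, 3 were higher and 3 lower, with a median of 0.00. Ppfia4 (liprin-α4), an active zone scaffold, gave 0.23, 0.29, 0.35 and 0.28, mean 0.29 ± 0.05 (adjusted p 0.00734), and was called with each replicate left out. Nrxn3 (neurexin 3), a presynaptic adhesion receptor, gave -0.27 ± 0.09 (adjusted p 0.0147), and Scamp1, a carrier membrane protein of vesicles, gave -0.23 ± 0.06 (adjusted p 0.0176). Both were lost without replicate 1 (0.0559 and 0.0641) and replicate 2 (0.0723 and 0.0687). The called shares of the 3 groups, 18.8%, 20% and 20%, lay a little above the 14.9% of all genes.

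Markers of cell types were read beside the members, whose median was 0.01, and beside all genes, of which 9.1% were higher and 5.84% lower. Of 12 general neuronal markers, 3 were higher (Thy1, Elavl4 and Rbfox3) and 0 lower, with a median of 0.04, and their summed signal was 281528 to 322054 in Ndrg2-/- samples and 267452 to 288517 in wild-type samples, so the groups overlapped. Of 9 markers of cortical excitatory neurons, 2 were higher (Neurod6 and Rorb) and 0 lower, with a median of 0.15. The sums were 54313 to 57196 in Ndrg2-/- samples and 49596 to 54969 in wild-type samples. Of 7 inhibitory neuron markers, 1 was higher and 0 lower, with sums of 100749 to 109160 in Ndrg2-/- and 93743 to 102324 in wild-type samples. Of the called neuronal markers, only Neurod6 was called whichever replicate was dropped. An unadjusted p under 0.05 in limma was reached by 4 general (33.3%), 5 excitatory (55.6%) and 3 inhibitory markers (42.9%), beside 34.8% of all genes.

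Of the other cell types, astrocytes and meningeal fibroblasts had the medians farthest from 0. Of 10 astrocyte markers, 2 were higher and 0 lower in limma (7 at an unadjusted p under 0.05, or 70%), with a median of 0.17, and the sums of 250450 to 264419 in Ndrg2-/- samples lay above the 223726 to 231215 in wild-type samples. Sums of signals weigh the brightest probes most, so they do not describe each marker. The brightest astrocyte probe, of 1 of the 2 called genes, had levels of 17.18 ± 0.07 in Ndrg2-/- and 16.94 ± 0.09 in wild-type samples. All 8 markers of meningeal fibroblasts were higher, with a median of 0.50 and sums of 10074 to 16993 in Ndrg2-/- samples and 7098 to 13298 in wild-type samples. Their array medians were 0.58, 0.44, 0.26 and 0.68, and Col1a2, Lum and Slc6a13 alone were called whichever replicate was dropped. Of 9 oligodendrocyte markers, 1 was higher and 1 lower with a median of -0.02 (sums of 150283 to 153466 in Ndrg2-/- and 150686 to 191291 in wild-type samples). Of 8 microglial markers 2 were higher (median -0.01), and of 7 endothelial markers 1 (median 0.03). Of 8 striatal markers 1 was lower (median -0.07), and of 5 choroid plexus markers 1 was higher (median 0.13). No marker on these lists was at background. Their part in the ratios of the exocytosis genes was not tested.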

How the data were processed

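Cortical RNA was measured on 4 dual-colour arrays. Spots were read by the authors with Agilent Feature Extraction, version 11.0.1.1 by the headers, although the submitters' processing notes name 10.7.3.1. Each spot has, per the file headers, an intensity (median pixel signal), a local background, a processed signal and the log10 of the red-to-green ratio. The authors also deposited a table of log2 values, which equals the log2 ratio of red over green processed signal by its own values; its column medians lay between -0.045 and 0.044. Red is the Ndrg2-/- sample per the labels. By their headers, the 4 arrays shared 1 slide and 1 scan, so neither could be tested as a batch; batches of dissection, extraction or dyeing are not given in the sources used here.

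Ratios were computed from the raw intensity with R 4.3.3 and limma 3.58.1: normexp background correction (offset 50), loess within each array with 1377 control spots at weight 0, 802 outlier spots left out of 43020 per array over the 4 arrays (0 were saturated), and spots of a probe averaged. Of 39429 probes, 27664 were kept: those well above background in 1 channel or both on each of the 4 arrays. An intercept-only model was fitted (lmFit, eBayes; 3 residual and 4.47 prior degrees of freedom), with Benjamini-Hochberg adjustment over all kept probes. The within-array ratio pairs the samples of 1 replicate number. Levels per sample came from quantile normalization of the average signals (Aquantile). Log2 ratios of the kept probes correlated between arrays with Pearson's r of 0.356 to 0.688. Symbols were matched by transcript accession to a RefSeq gene table (assembly GRCm38.p6) for 27427 probes, 20764 of them kept. The array annotation uses another assembly, so no coordinates are given. Arrays give no counts, and their number limits the precision. The pipeline was tested on simulated arrays.

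Named were Ndrg2, up to 6 called members of each role and direction with 1 sign on all 4 arrays, textbook members whatever their value, and up to 3 called genes of each neighbouring list; other members were named after their values were seen. Some members and markers are not reported by name here or drawn, although they enter the counts and medians. The members, roles and lists were chosen with earlier results of these data known. Alternatives covered the signal, background, normalization, filter, variance model, choice of probe and each replicate.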

Additional observations from a re-analysis of the deposited data

Results flagged for a closer look

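Of 36 values checked for an array that stands apart, 2 had one, and chance alone marks about 1 in 20. The Syt6 ratio of array 4 was 0.12, against 0.17 on each of the other arrays, so its gap took up 0.982 of the range; the ratios differ by little in size. The Ndrg2 ratio of array 1 was 0.11, against 0.37 to 0.40 on the others (0.897 of the range). The cause was not tested.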

How the results depend on the processing

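Members called numbered 10 higher and 6 lower. Processed signals and the deposited log2 values each gave 6 and 3 (probes: 6 and 8, against 14 and 13), SNARE calls 1 against 4, medians of -0.01 for all members, -0.07 for synaptotagmins and 0.00 for active zone and vesicle proteins, and Ndrg2 at 0.26. Leaving out Rab30 to Rab39 left 3 lower. Median centring without loess gave 77 members and 100 probes higher, 13 synaptotagmins, 22 SNAREs, 7 active zone and 17 vesicle proteins called, 8 members past 1.5 fold against 0, and medians of 0.34 (all members), 0.33 (synaptotagmins), 0.42 (SNAREs), 0.19 (active zone) and 0.37 (vesicle proteins). It called 82.2% of all genes and turned the sign of Cplx1 (0.52), Cplx2 (0.45), Erc2 (0.38), Nsf (0.44), Rab33a (0.19), Rab34 (0.05), Rab35 (0.25), Rims1 (0.22), Stxbp5 (0.12), Syn2 (0.48), Syngr1 (0.37), Syt1 (0.42) and Vamp2 (0.38). This setting keeps the intensity-dependent difference between the red and green channels that loess removes. Dye and genotype cannot be told apart in that difference. With an intensity trend in eBayes, 6 synaptotagmins, 2 active zone and 3 vesicle proteins were called, against 3, 1 and 1. Without background subtraction, the medians of all members and of active zone proteins were 0.00. With the mean of all probes of a gene, 2 vesicle proteins were called at a median of 0.03, the median also given by the filter on both channels, and Syt6 turned to -0.02. Without 1 replicate, members called higher numbered 1 to 9 and lower 0 to 2, probes 1 to 10 and 1 to 6, synaptotagmins 0 to 1, SNAREs 0 to 4, active zone proteins 0 to 1 and vesicle proteins 0 to 1. The medians were then 0.01 to 0.04 for all members, 0.01 to 0.07 for active zone proteins and 0.00 to 0.03 for vesicle proteins, and Ndrg2 was 0.29 to 0.39. The causes of the remaining changes were not tested. No paired analysis was possible because each replicate number has 1 ratio, which leaves a block nothing to fit, beyond the pairing already in that ratio, on which each test here rests. Dim probes bound the precision: 4 members were not tested, as their signal was not well above background.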
